A study of Mus musculus with 24 samples.

Results

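The 10 genes described here carry out or control de novo lipogenesis, the making of fatty acids from acetyl-CoA. They are Acly, Me1, Acaca, Acacb, Fasn, Elovl6, Scd1, Thrsp, Srebf1 and Mlxipl, listed by name and looked up by symbol in a table of estimated counts for 36144 genes. All 10 passed the filter on low counts, which left 13129 genes to be tested. The RNA came from the interscapular brown fat, a depot that makes heat, of 24 mice of 6 to 8 months. The animals formed 4 groups of 6, with 3 females and 3 males in each, and the design addresses how this tissue responds when sympathetic neurons that reach it are stimulated through a designer receptor. The groups were Th-Cre mice given deschloroclozapine (DCZ), Th-Cre mice given saline, wild-type (WT) mice given DCZ and WT mice given saline, and all tissue was taken 30 minutes after the agent. The Th-Cre mice carry the allele labelled B6.129X1- Tht1(cre)Te/Kieg, in which tyrosine hydroxylase regulatory sequence drives Cre recombinase in catecholamine-producing cells, and the WT mice are C57Bl/6J. DCZ acts on designer receptors built from muscarinic ones. Which receptor was used, its delivery, and whether the WT mice received it is not given in the sources used here.

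In this pathway ATP citrate lyase, made from Acly, cleaves cytosolic citrate to acetyl-CoA, and malic enzyme, made from Me1, supplies NADPH. The acetyl-CoA carboxylases of Acaca and Acacb make malonyl-CoA, which the fatty acid synthase of Fasn joins into palmitate, while Elovl6 lengthens palmitate and Scd1 adds the double bond that makes monounsaturated fatty acids. Srebf1 and Mlxipl encode the transcription factors SREBP1 and ChREBP, which switch these genes on in response to insulin and to sugar, and Thrsp encodes Spot 14, a small protein induced with them. Brown fat takes up glucose and makes fatty acids at a high rate, and it burns fatty acids to make heat.

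Libraries held between 11.9 and 22.9 M counts, and values are given as CPM, the counts of a gene per 1e6 counts of a library, on TMM-scaled library sizes. The adipocyte genes Adipoq, Plin1, Fabp4, Pparg, Cidec and Lipe summed to 8574 to 12120 CPM in every library, and 7 white adipocyte markers summed to 28.0 to 72.3 CPM. Ucp1, the uncoupling protein of brown fat, averaged 2808 CPM in Th-Cre DCZ, 3505 CPM in Th-Cre saline, 5395 CPM in WT DCZ and 4772 CPM in WT saline mice. Skeletal muscle RNA stood out in 6 libraries, in which 13 muscle markers had a mean log2 CPM of 1.92 to 6.44: Th-Cre DCZ DN2075 and DN2091, Th-Cre saline DN2086, DN2087 and DN2094, and WT saline 12. Library numbers run through the WT mice first and then through the Th-Cre mice, so genotype and library order cannot be told apart. In bulk tissue, fewer cells of a type and less RNA per cell cannot be told apart either.

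The 10 genes together took 5.67% ± 2.14 of all counts in Th-Cre DCZ, 5.92% ± 2.02 in Th-Cre saline, 2.68% ± 0.994 in WT DCZ and 3.08% ± 0.816 in WT saline libraries (SD, n = 6 each). Most of this was Scd1, which reached 5.41% of 1 library, and Fasn, which reached 2.96%. Per kilobase of annotated exon, Scd1 was highest, at 4535 ± 2811 CPM per kb (SD, n = 24). Fasn followed at 1258 ± 624, Thrsp at 747 ± 157 and Acly at 236 ± 151 CPM per kb. Me1 (142 ± 70.8), Acacb (131 ± 26.4), Elovl6 (102 ± 35.8) and Acaca (97.49 ± 41.4 CPM per kb) came next, with differences between neighbours smaller than the larger of their SDs. The transcription factor genes were lowest, Mlxipl at 61.1 ± 10.6 and Srebf1 at 33.2 ± 6.55 CPM per kb. The place of Acaca depends on the length used, since its longest annotated transcript gives 175 CPM per kb and puts it above Me1. The order also differs between groups. By the longest transcript Thrsp was above Fasn in WT mice, at 1046 and 873 CPM per kb after DCZ and 1139 and 939.9 after saline, and by annotated exon Acacb was above Me1 in WT mice, at 117 and 88.8 after DCZ and 107.5 and 102 after saline.

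The mouse promoters below, 250 bases before to 50 bases after the annotated start from RefSeq on GRCm38.p6, are shown because Fasn and Acly had log2 genotype differences near 1, called for Fasn but not for Acly, whereas those of Thrsp and Mlxipl were smaller and not called. Capitals mark CCAAT (or ATTGG on the other strand), the letters bound by NF-Y, CACGTG, the E-box letters bound by ChREBP and USF, and the GC box GGGCGG (or CCGCCC), the letters bound by SP1. The Fasn window is chr11:120824498-120824797 on the minus strand and that of Acly is chr11:100527951-100528250 on the minus strand. The Thrsp window is chr7:97417501-97417800 on the minus strand, and the Mlxipl window, 1 of 2 listed for that gene, is chr5:135089640-135089939 on the plus strand.
Fasn: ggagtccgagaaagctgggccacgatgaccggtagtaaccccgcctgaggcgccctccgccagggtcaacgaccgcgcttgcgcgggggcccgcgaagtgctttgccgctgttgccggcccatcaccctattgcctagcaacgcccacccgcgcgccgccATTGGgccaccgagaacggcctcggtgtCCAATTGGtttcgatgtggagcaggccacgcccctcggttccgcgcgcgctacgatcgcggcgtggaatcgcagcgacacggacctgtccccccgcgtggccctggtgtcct
Acly: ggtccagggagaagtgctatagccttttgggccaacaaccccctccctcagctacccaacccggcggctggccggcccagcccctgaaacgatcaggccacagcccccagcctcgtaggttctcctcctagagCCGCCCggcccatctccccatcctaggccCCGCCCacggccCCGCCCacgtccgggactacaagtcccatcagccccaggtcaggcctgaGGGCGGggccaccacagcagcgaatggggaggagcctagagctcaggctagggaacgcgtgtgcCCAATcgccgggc
Thrsp: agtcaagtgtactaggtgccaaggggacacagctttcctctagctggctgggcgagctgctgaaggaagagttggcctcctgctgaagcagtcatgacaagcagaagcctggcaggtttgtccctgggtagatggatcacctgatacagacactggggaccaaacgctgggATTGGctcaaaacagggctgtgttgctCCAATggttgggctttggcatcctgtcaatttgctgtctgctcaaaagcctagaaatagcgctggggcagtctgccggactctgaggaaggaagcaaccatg
Mlxipl: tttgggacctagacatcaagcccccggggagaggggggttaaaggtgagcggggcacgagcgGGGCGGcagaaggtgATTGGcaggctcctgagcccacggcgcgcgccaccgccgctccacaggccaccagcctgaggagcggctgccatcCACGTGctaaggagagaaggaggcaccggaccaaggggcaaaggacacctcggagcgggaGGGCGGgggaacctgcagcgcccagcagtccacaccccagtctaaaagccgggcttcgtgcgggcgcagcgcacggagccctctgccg
Fasn holds CCAAT letters 3 times, beginning at -90, -62 and -59 from the start base, the last pair sharing bases. Thrsp holds them at -79 and -52, and the Mlxipl window at -173, with its E-box at -98. The Acly window holds 4 GC boxes and, beyond its start, CCAAT letters at 37. Windows were listed for 9 of the 10 genes, and CCAAT letters occurred in a window of 7 of these 9, against 37.4% of 32851 such windows in the genome. The E-box occurred for 1 of 9 (7.15% of windows), the sterol element letters TCACNCCAC for 1 of 9 (1.24%) and the GC box for 4 of 9 (35.7%). A gene with several windows had several chances to match, while the shares of the genome are per window. Counted by window, CCAAT letters were in 8 of 13, the GC box in 5 of 13, the E-box in 1 of 13 and the sterol element letters in 1 of 13. A match describes letters only.

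Most of the pathway's enzyme genes were higher in Th-Cre than in WT brown fat. After saline, 7 of the 10 rose in Th-Cre mice and 0 fell, against 24.9% of all genes tested that were called, 12.5% higher and 12.4% lower. After DCZ, 5 of the 10 rose and 0 fell, where 13.8% of all genes were called, 6.75% higher and 7.02% lower. The median log2 fold change of the 10 was 0.84 after saline and 0.79 after DCZ, where the median of all genes was -0.01 and -0.002. Fold changes are Th-Cre over WT, with standard errors (SE) and adjusted p-values from edgeR's quasi-likelihood test with Benjamini-Hochberg adjustment over all 13129 genes.

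**Figure D1:**
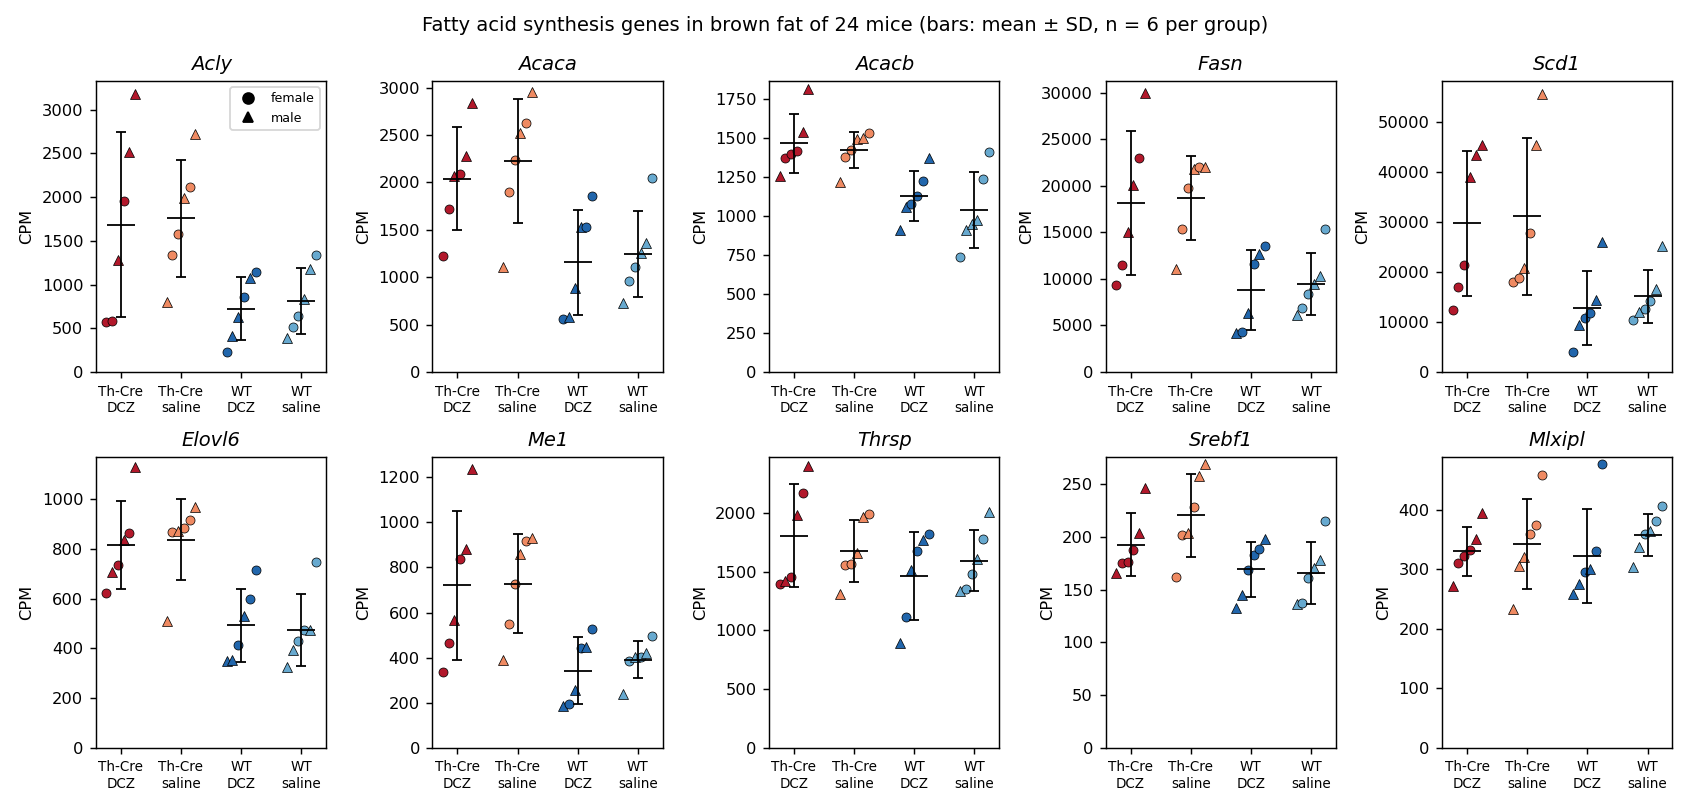
CPM of each gene in every mouse, by group, with females as circles, males as triangles and bars for the mean ± SD of 6 mice. The means of Acly to Me1 are higher in Th-Cre than in WT mice after either agent, and the ranges of the groups overlap for all 10 genes.

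The genes that supply carbon and NADPH come first, and Acly was the most variable of the 10. It ran from 576 to 3180 CPM (median 1621) in Th-Cre DCZ mice and from 231 to 1144 CPM (median 748) in WT DCZ mice. After saline it ran from 796 to 2719 CPM (median 1783) in Th-Cre and from 393 to 1338 CPM (median 735) in WT mice. In each of these comparisons 4 of 6 Th-Cre mice lay above every WT mouse, and the others overlapped. The log2 fold change was the largest of the 10 after saline, 1.10 ± 0.41 (SE), but missed the threshold (edgeR adjusted p = 0.0539), as did the 1.15 ± 0.42 after DCZ (adjusted p = 0.0651). Me1 ran from 336 to 1239 CPM (median 701) in Th-Cre DCZ and from 187 to 527 CPM (median 348) in WT DCZ mice, and from 388 to 929 CPM (median 793) in Th-Cre saline and from 240 to 494 CPM (median 403) in WT saline mice. It rose by 1.07 ± 0.30 on the log2 scale after DCZ (adjusted p = 0.0205) and by 0.90 ± 0.29 after saline (adjusted p = 0.0287), and 5 of 6 Th-Cre saline mice were above every WT saline mouse.

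Both acetyl-CoA carboxylase genes rose in Th-Cre mice after saline. Acaca, the cytosolic form that feeds synthesis, ran from 1106 to 2950 CPM (median 2374) in Th-Cre saline and from 728 to 2045 CPM (median 1179) in WT saline mice. It ran from 1227 to 2841 CPM (median 2079) in Th-Cre DCZ and from 562 to 1854 CPM (median 1205) in WT DCZ mice. In each pairing 4 of 6 Th-Cre mice exceeded all WT mice, and the gene rose by 0.84 ± 0.29 (SE, log2) after saline (edgeR adjusted p = 0.0366), while the 0.83 ± 0.29 after DCZ was not called (adjusted p = 0.0587). Acacb, whose product sits at mitochondria and limits fatty acid entry, was the steadier of the pair. It ran from 1218 to 1531 CPM (median 1458) in Th-Cre saline and from 739 to 1408 CPM (median 961) in WT saline mice, and from 1258 to 1810 CPM (median 1405) in Th-Cre DCZ and from 908 to 1370 CPM (median 1101) in WT DCZ mice. It rose by 0.46 ± 0.12 after saline (adjusted p = 0.00978) and by 0.38 ± 0.12 after DCZ (adjusted p = 0.0424), and all but 1 Th-Cre DCZ mouse exceeded every WT DCZ mouse.

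Fatty acid synthase itself and the enzymes that finish its product rose in both genotype comparisons. Fasn ran from 11120 to 22050 CPM (median 20800) in Th-Cre saline and from 6165 to 15410 CPM (median 8945) in WT saline mice. After DCZ it ran from 9315 to 29980 CPM (median 17610) in Th-Cre and from 4212 to 13560 CPM (median 8947) in WT mice. The groups overlapped, with 4 of 6 Th-Cre mice above all WT mice each time, and Fasn rose by 0.99 ± 0.31 after saline (edgeR adjusted p = 0.0237) and by 1.05 ± 0.31 after DCZ (adjusted p = 0.0284), or 1.98- and 2.07-fold. Elovl6, the elongase of palmitate, had the smallest p of the 10 after saline. It ran from 512 to 968 CPM (median 881) in Th-Cre saline and from 327 to 750 CPM (median 451) in WT saline mice, and from 624.8 to 1132 CPM (median 787) in Th-Cre DCZ and from 348 to 717 CPM (median 472) in WT DCZ mice. It rose by 0.83 ± 0.19 after saline (adjusted p = 0.00398) and by 0.75 ± 0.19 after DCZ (adjusted p = 0.0127), with 5 of 6 Th-Cre saline mice above every WT saline mouse. Scd1, the desaturase, ran from 12340 to 45390 CPM (median 30160) in Th-Cre DCZ and from 4056 to 26030 CPM (median 11340) in WT DCZ mice, and from 18030 to 55580 CPM (median 24320) in Th-Cre saline and from 10450 to 25170 CPM (median 13320) in WT saline mice. It rose by 1.16 ± 0.27 after DCZ (adjusted p = 0.00949) and by 0.98 ± 0.27 after saline (adjusted p = 0.0121), although 3 of 6 Th-Cre mice lay within the WT range in each case. These ranges pool the sexes, and Scd1 was lower in females. After DCZ, Th-Cre females had 12340 to 21380 CPM and WT females 4056 to 11850 CPM. The males had 38940 to 45390 and 9438 to 26030 CPM. After saline, Th-Cre females had 18030 to 27770 CPM and WT females 10450 to 14120 CPM. The males, at 20880 to 55580 and 11980 to 25170 CPM, overlapped. Each sex had 3 mice per group. Counts per gene may share reads among Scd1 and its relatives, of which Scd2 was counted separately, with group means of 54.1 CPM (WT DCZ) to 121 CPM (Th-Cre DCZ).

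Of the transcription factor genes and Thrsp, Srebf1 alone was called, after saline. Srebf1 ran from 162 to 269 CPM (median 216) in Th-Cre saline and from 136 to 215 CPM (median 165) in WT saline mice, and it rose by 0.40 ± 0.13 (SE, log2; edgeR adjusted p = 0.0268) with 3 of 6 Th-Cre mice above all WT mice. After DCZ its range was 165 to 247 CPM (median 182) in Th-Cre and 133 to 198 CPM (median 175) in WT mice, and the difference of 0.18 ± 0.13 was not called (adjusted p = 0.36). Mlxipl ran from 234 to 459 CPM (median 340) in Th-Cre saline and from 304 to 406 CPM (median 361) in WT saline mice, and from 272 to 394 CPM (median 327) in Th-Cre DCZ and from 258 to 477 CPM (median 298) in WT DCZ mice. Its ranges overlapped nearly entirely and its log2 fold changes were -0.08 after saline (95% interval -0.33 to 0.17, adjusted p = 0.672) and 0.05 after DCZ (-0.20 to 0.30, adjusted p = 0.811). Thrsp ran from 1313 to 1995 CPM (median 1615) in Th-Cre saline and from 1339 to 2012 CPM (median 1541) in WT saline mice, and from 1399 to 2404 CPM (median 1720) in Th-Cre DCZ and from 896 to 1817 CPM (median 1593) in WT DCZ mice. Its log2 fold changes were 0.07 (-0.27 to 0.42, adjusted p = 0.781) after saline and 0.30 (-0.05 to 0.65, adjusted p = 0.234) after DCZ. Gene-level counts do not separate the isoforms of Srebf1 or Mlxipl, so a shift between isoforms is not measured here.

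**Figure D2:**
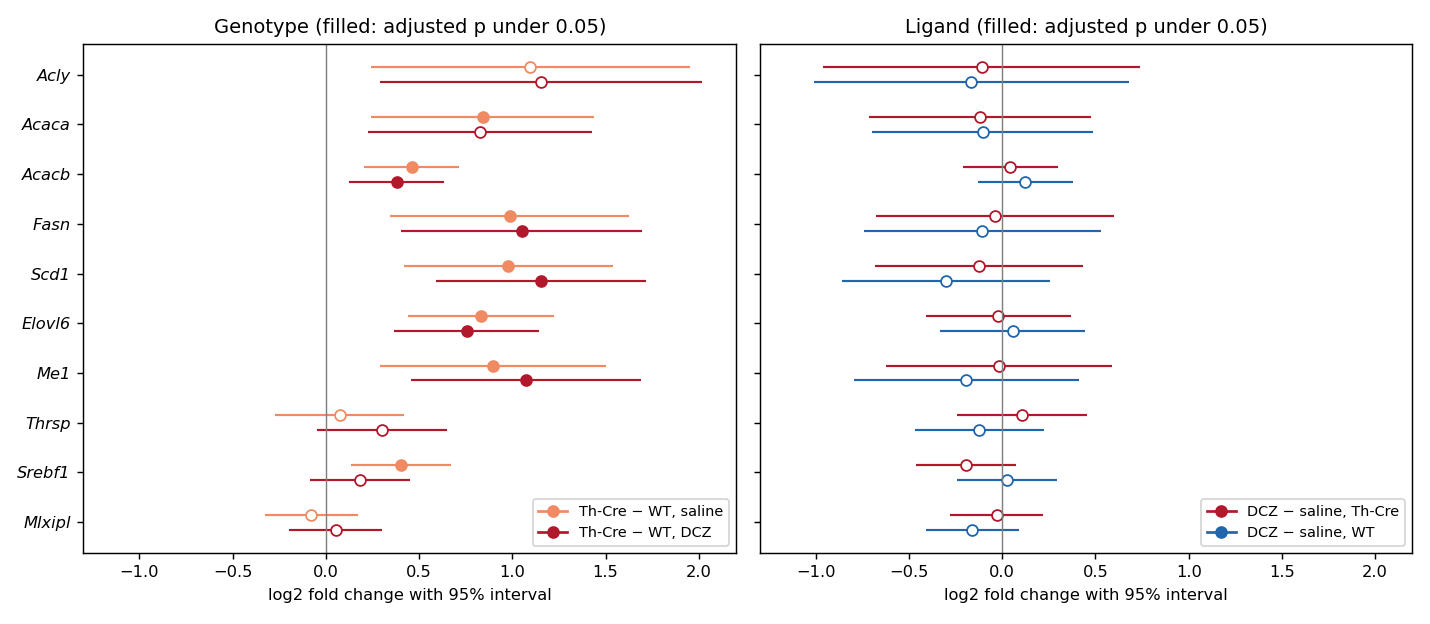
Log2 fold change with its 95% interval for each gene, by genotype on the left and by ligand on the right, filled where the adjusted p was under 0.05. Genotype differences of the enzyme genes lie between 0.38 and 1.16, while all 20 ligand intervals cross 0.

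Values that moved with genotype are given beside these counts. The 13 muscle markers summed to 3.59 to 634 CPM in Th-Cre DCZ, 3.30 to 1527 CPM in Th-Cre saline, 4.74 to 45.6 CPM in WT DCZ and 4.002 to 299 CPM in WT saline libraries. Without the 6 muscle-containing libraries 0 of the 10 were called in either comparison, with 4 Th-Cre DCZ, 3 Th-Cre saline, 6 WT DCZ and 5 WT saline mice left. The median log2 fold change of the 10 was then 0.65 after saline and 0.81 after DCZ, with Elovl6 at 0.69 (edgeR adjusted p = 0.113) and 0.80 (adjusted p = 0.0552). All genes called fell to 109 after saline and 535 after DCZ in that fit. Of 10 brown adipocyte markers, 3 were lower and 1, Ppara, higher in Th-Cre mice in each comparison, and their sum averaged 5807 ± 953 CPM in Th-Cre DCZ and 8829 ± 844 in WT DCZ, and 6481 ± 788 in Th-Cre saline and 8213 ± 888 in WT saline mice (SD, n = 6 each). Ucp1 fell by 0.96 on the log2 scale after DCZ and by 0.44 after saline (adjusted p = 0.000142 and 0.0136). All 5 endothelial markers were lower in Th-Cre saline and 2 of 5 in Th-Cre DCZ mice. Of the 6 general adipocyte genes, Lipe (0.36) and Plin1 (0.33) were higher and Fabp4 (-0.29) lower in Th-Cre saline mice, and Lipe (0.32) was higher in Th-Cre DCZ mice. Of 4 tested white adipocyte markers, Nnat was lower in Th-Cre mice after saline (-1.56) and after DCZ (-2.71). The 5 gland epithelium markers, which did not pass the filter, summed to a mean of 2.06 CPM in Th-Cre DCZ and 0.167 CPM in WT DCZ, and 1.22 CPM in Th-Cre saline and 0.253 CPM in WT saline libraries. The part of these values in the differences above was not tested.

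Several of the genotype calls are close to the threshold, and 1 library could decide them. After saline, the count of 7 became 3 without WT saline 9 and 4 without any 1 of WT saline 12 or Th-Cre saline DN2087, DN2094 or DN2099. After DCZ, the count of 5 became 2 without WT DCZ 5 or Th-Cre DCZ DN2097 and 3 without any 1 of WT DCZ 3, WT DCZ 6 or Th-Cre DCZ DN2072 or DN2075. Elovl6 and Scd1 kept their calls in both comparisons, and Acacb after saline, whichever library was left out. After saline, Acaca missed the threshold without any 1 of WT saline 8, 9, 11 or 12 or Th-Cre saline DN2087, DN2094, DN2099 or DN2201 (edgeR adjusted p = 0.0551 to 0.089). Me1 did so without WT saline 8 or 9 or Th-Cre saline DN2087, DN2094 or DN2099 (0.0503 to 0.0716), Srebf1 without WT saline 9 or 12 or the same 3 Th-Cre mice (0.0511 to 0.0727) and Fasn without WT saline 9 or 12 (0.0577 to 0.0591). After DCZ, Acacb missed it without any 1 of 14 libraries (0.0506 to 0.124), Fasn without 6 (0.0575 to 0.0848) and Me1 without 2 (0.0627 to 0.0643). Acly passed after saline without any 1 of 7 libraries (0.0169 to 0.05) and after DCZ without any 1 of 3 (0.032 to 0.0389), and Acaca after DCZ without any 1 of 4 (0.0301 to 0.0498). In males alone Elovl6 (0.98, adjusted p = 0.0431) was called after saline and Elovl6, Fasn and Me1 after DCZ (log2 fold changes 1.12, 1.49 and 1.60), and in females alone 0 were called, with 6 mice in each such comparison.

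At 30 minutes after DCZ, 0 of the 10 genes passed edgeR's quasi-likelihood test in Th-Cre mice, where 0.0229% of all genes were called, and 0 had an unadjusted p under 0.05. DESeq2 and limma-voom also called 0 of them. The log2 fold changes, DCZ over saline, ran from -0.19 for Srebf1 (95% interval -0.46 to 0.07) to 0.11 for Thrsp (-0.24 to 0.45), with a median of -0.03. Without the 6 muscle-containing libraries the median was 0.09, and 0 of 10 passed. The intervals set how large an unseen change could be. For Acacb (-0.21 to 0.30) and Mlxipl (-0.28 to 0.22) they are narrow, and for Elovl6 they reach from -0.41 to 0.37. They are wide for Fasn (-0.68 to 0.60), Scd1 (-0.68 to 0.43) and Acly (-0.96 to 0.74). Those of Acaca (-0.72 to 0.48) and Me1 (-0.62 to 0.59) are wide as well.

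In WT mice, which show what the ligand does without Cre, 0 of 10 also passed, against 0.00762% of all genes, and 0 had an unadjusted p under 0.05. The log2 fold changes ran from -0.30 for Scd1 (-0.86 to 0.25) to 0.12 for Acacb (-0.13 to 0.38). The difference between the genotypes in the response to DCZ passed for 0 of 10, against 0.00762% of all genes, and ran from -0.22 for Srebf1 (-0.60 to 0.16) to 0.23 for Thrsp (-0.26 to 0.72). Among WT mice the lower 6 library numbers hold 5 DCZ and 1 saline mouse, and the upper 6 hold 1 DCZ and 5 saline mice. Within the lower 6, Fasn differed by -1.09 on the log2 scale, DCZ minus saline, and within the upper 6 by 0.51, with 1 library on a side each time, so treatment and library order in WT mice cannot be told apart.

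Scd1 was the member that differed by sex. It was 0.529-fold as high in females as in males (log2 fold change -0.92 ± 0.19, SE, edgeR adjusted p = 0.00416), averaging 14940 ± 6133 CPM in 12 females and 29430 ± 15600 CPM in 12 males (SD). It was 1 of 10 members called, against 8.07% of all genes, 4.11% higher and 3.95% lower in females. In Th-Cre DCZ mice the 3 females had 12340, 17090 and 21380 CPM and the 3 males 38940, 43350 and 45390 CPM, with no overlap. In Th-Cre saline mice the females had 18030, 18820 and 27770 CPM and the males 20880, 45430 and 55580 CPM. In WT DCZ mice the females had 4056, 10830 and 11850 CPM and the males 9438, 14380 and 26030 CPM, and in WT saline mice the females had 10450, 12530 and 14120 CPM and the males 11980, 16570 and 25170 CPM. The mean was lower in females in all 4 groups, and the ranges of the sexes overlapped in the last 3. Mlxipl averaged 367 ± 56.7 CPM in females and 310 ± 46.5 CPM in males (SD, n = 12 each), a log2 fold change of 0.25 ± 0.09 that missed the threshold (edgeR adjusted p = 0.0754), although DESeq2 called it (adjusted p = 0.0441), as did edgeR without Th-Cre DCZ DN2097 (adjusted p = 0.0297). Muscle markers summed to 263 ± 456 CPM in females and 20.5 ± 31.8 CPM in males, and 9 of 13 were higher in females. Without the 6 muscle-containing libraries, 4 of them from females, Scd1 differed by -0.79 and missed the threshold (edgeR adjusted p = 0.0606), with 18 mice left. Other markers differed by sex as well: Ucp1 (0.33), Dio2 (0.54), Elovl3 (0.89) and Retn (0.59) were higher in females, and Cidea (-0.19), Fabp4 (-0.18), the fibroblast gene Dcn (-0.58) and Nnat (-1.28) were lower. The part of muscle RNA and of these markers in the difference was not tested.

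**Figure D3:**
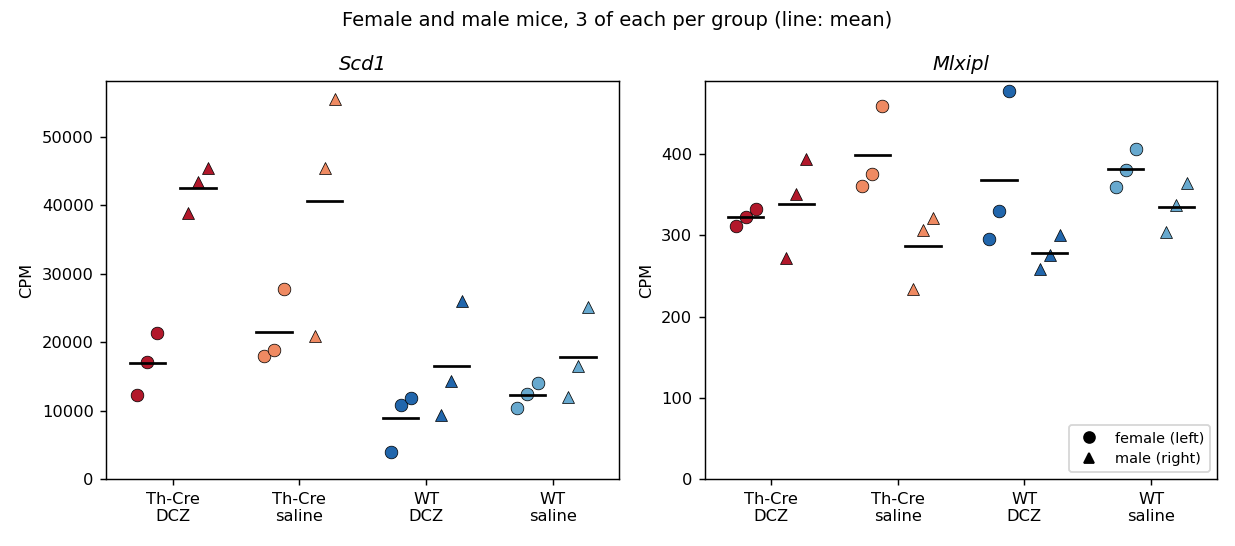
CPM of Scd1 and Mlxipl in the 3 females (circles) and 3 males (triangles) of each group, with lines for the means. Female Scd1 means lie below male means in all 4 groups, at 16940 against 42560 CPM in Th-Cre DCZ mice.

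From mouse to mouse within a group the enzyme genes varied widely and together. Within group and sex, the SD of log2 CPM was 0.838 for Acly, larger than in 99.3% of the 10920 genes with a mean log2 CPM of at least 1, 0.621 for Fasn, 0.588 for Acaca, 0.573 for Me1 and 0.554 for Scd1. It was 0.347 for Elovl6, 0.341 for Thrsp, 0.237 for Acacb and for Srebf1 and 0.207 for Mlxipl, where the median gene had 0.178. Over all 24 mice Acly spanned 13.75-fold and Scd1 13.7-fold, while Srebf1 spanned 2.03-fold.

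After centring on the mean of each group and sex, all 45 pairs of members had a positive correlation over the 24 mice, with a median Pearson r of 0.739. This did not hold for Mlxipl within each group of 6 mice. In WT saline mice its r ran from -0.693 with Scd1 to 0.0175 with Thrsp, and all but the last were negative. In the other groups its r values were all positive, in Th-Cre saline mice from 0.508 with Scd1 to 0.945 with Acacb. The members had a median r of -0.0036 with 10910 other genes, and 2.5% of those values were above 0.631. Acly and Fasn had the highest r, 0.96 (Spearman's rho 0.952), with a permutation p of 1e-05 for each, the smallest that 100000 permutations within groups can give, and 3.21e-05 and 3.75e-05 after Benjamini-Hochberg adjustment over 45 pairs. Without the 2 mice farthest from the median of Acly r was 0.946. Acaca and Fasn reached 0.952 and Fasn and Me1 0.95, with the same adjusted p-values. Srebf1 followed Acacb most closely, at 0.827 (rho 0.813, adjusted permutation p = 3.21e-05 and 9e-05). Within groups of 6 mice the closest partner of Srebf1 varied. In Th-Cre DCZ mice its r was 0.9805 with Acacb and 0.225 with Fasn, and in WT saline mice 0.7377 with Acacb and 0.9955 with Fasn. Mlxipl stood apart, with r of 0.355 with Scd1 (permutation p = 0.169), 0.242 with Srebf1 (permutation p = 0.269) and 0.129 with Acacb (permutation p = 0.524), the 3 pairs that missed the adjusted threshold. Its other 6 pairs were called by r in all 24 mice and 3 of these also by rho, but 0 of its 9 pairs without the 6 muscle-containing libraries. The adjusted permutation p of r was 0.043 with Fasn, 0.045 with Elovl6 and 0.046 with Acaca, close to the threshold. Values were centred by group and sex, while the permutations mixed the sexes within a group. The permutation p-values can therefore be too small, and the calls of these pairs are not secure.

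**Figure D4:**
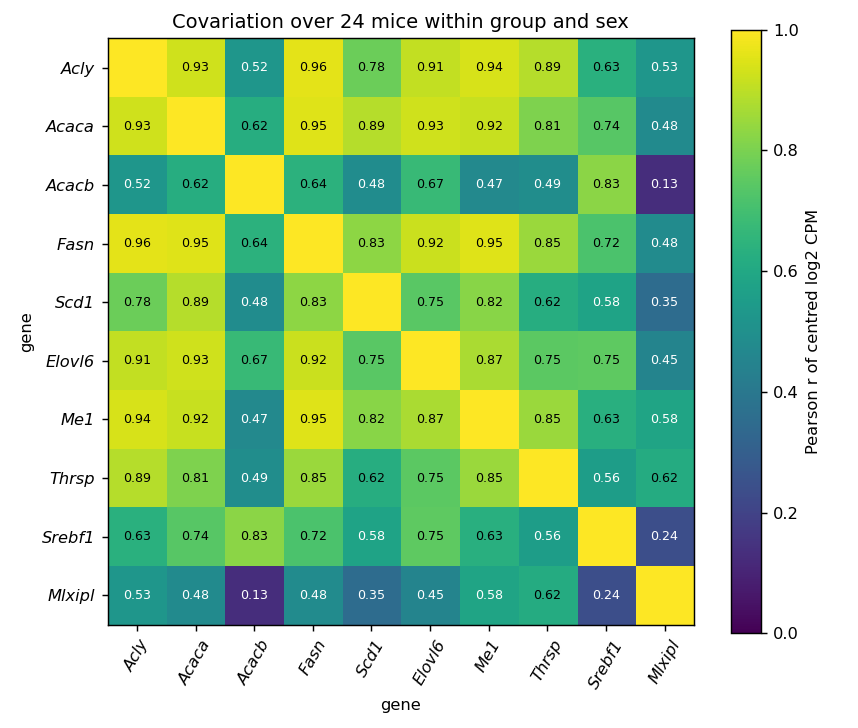
Pearson r of log2 CPM for each pair of genes over 24 mice after centring by group and sex, on a scale of 0 to 1. Acly, Acaca, Fasn, Elovl6 and Me1 form a block of r from 0.875 to 0.96, a set picked from these values, and the row of Mlxipl is the darkest, with r from 0.129 to 0.616.

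Among the 8 genes most like the mean of the 10 by this measure, ranked over 10910 genes and 24 mice, were Tkt, transketolase of the pentose phosphate pathway (r = 0.956), the glycolytic enolase Eno1 (0.947), the glycogen phosphorylase Pygl (0.946), the mitochondrial citrate carrier Slc25a1 (0.94), the pyrophosphate transporter Ank (0.937), the phosphogluconate dehydrogenase Pgd (0.931) and the lanosterol synthase Lss (0.929). The least like were Ctsl (-0.86), Sgk2 (-0.856), Nnmt (-0.848) and Psme1 (-0.848). These r values come from the same 24 libraries, which differ in depth, and they are a description with no p.

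Of 8 tested genes that supply substrate and NADPH, 3 rose in Th-Cre saline mice and 0 fell, where 12.5% of all genes were higher and 12.4% lower. They were Acss2, which makes acetyl-CoA from acetate (0.95, edgeR adjusted p = 0.0199), the isocitrate dehydrogenase Idh1 (0.46, adjusted p = 0.00166) and Mthfd1 (0.29, adjusted p = 0.00949). After DCZ, Acss2 (1.12, adjusted p = 0.0161) and Idh1 (0.27, adjusted p = 0.0407) rose and 0 fell, where 6.75% of all genes were higher and 7.02% lower. The other members of the list did not pass. Acss2 averaged 426 ± 217 CPM in Th-Cre DCZ and 187 ± 67.5 CPM in WT DCZ, and 456 ± 148 CPM in Th-Cre saline and 235 ± 58.6 CPM in WT saline mice (SD, n = 6 each), and its ranges overlapped. Of 15 tested elongation and desaturation genes, 1 rose (Hsd17b12, 0.27) and 2 fell (Elovl1, -0.46, and Hacd1, -0.37) after saline, and 1 rose (Scd2, 1.10) and 2 fell (Fads2, -0.49, and Hacd1, -0.46) after DCZ. Counts for elongation and regulator genes are to be read against 24.9% of all genes called after saline and 13.8% after DCZ, and are near or below these shares after saline. Of 26 regulators, 4 rose after saline, the AMP-activated kinase subunit Prkaa2 (0.56), Mid1ip1, a relative of Spot 14 (0.36), Rxra (0.31) and Insig2 (0.27), and 2 fell, the liver X receptor gene Nr1h3 (-0.26) and Nfyc (-0.22). After DCZ, Insig1, which holds SREBP proteins in the endoplasmic reticulum (0.77), and Prkaa2 (0.32) rose and Nr1h3 fell (-0.42). In both DCZ comparisons and in the difference between them 0 of these 49 tested genes passed.

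Of the 15 elongation and desaturation genes 6 were higher in females and 0 lower, where 4.11% of all genes were higher and 3.95% lower: Elovl3, the brown fat elongase (0.89), Elovl4 (0.72), Fads6 (0.60), Hacd2 (0.47), Fads1 (0.36) and Hsd17b12 (0.19), with edgeR adjusted p of 0.000528 to 0.0404. Elovl3 averaged 146 ± 35.3 CPM in females and 81.0 ± 30.1 CPM in males (SD, n = 12 each). Of the regulators, Nr1h3 (0.23), Srebf2 (0.19) and Mlx, the partner of ChREBP (0.15), 3 of 26, were higher in females, and of the 8 substrate genes 0 passed.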

How the data were processed

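Polyadenylated RNA of 24 brown fat samples, each from a separate mouse per the labels, was sequenced with TruSeq libraries. The submitters' processing notes name kallisto 0.44.0 and the build GRCm38.p6, while how transcripts were chosen, summed to genes and counted by strand is not given in the sources used here. The table of estimated counts per gene that the authors deposited holds whole numbers, which were tested unchanged. Normalized signal was deposited by the authors separately for each genotype as counts over 1 size factor per library, so it served only as an alternative within a genotype. The deposited totals were 11.9 to 22.9 M per library.

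Genes were filtered with filterByExpr by group, scaled by TMM and fitted with edgeR 4.0.16 (R 4.3.3) over all 24 libraries, with group means and sex. Genes with a Benjamini-Hochberg adjusted p under 0.05 over 13129 genes are said to be called, to have risen or to have fallen. Intervals are 95% and use the total degrees of freedom, and log2 CPM uses a prior count of 2. DESeq2 1.42.0 and limma 3.58.1 were alternatives, and the scripts were tested on simulated data. Coordinates are 1-based on GRCm38, and exon lengths come from GENCODE M21, where 7 of the 10 genes overlap another annotated gene. The p-values of edgeR set a difference against the spread between mice, and those of r come from permutations. For genotype they do not separate it from library order.

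The 10 genes and the gene lists were chosen with earlier results of these data known. All 10 are named in both genotype comparisons and for DCZ in Th-Cre mice. For DCZ in WT mice, for the difference between the genotypes and by sex, those with the lowest and highest log2 fold change are named. Called genes of the pathway lists are named, at most 6 per list and comparison by smallest p, as are the 8 genes most like and the 4 least like the mean of the 10. Of the 8, 1 is not reported here. No protein sequence was used here.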

Additional observations from a re-analysis of the deposited data

Results flagged for a closer look

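Among 40 groups of values, the 10 genes in 4 groups of 6 mice, 3 had a mouse far from the other 5, and chance alone gives about 1 in 20. Elovl6 had 512.1 CPM in Th-Cre saline DN2089, where the gap to the next mouse was 0.781 of the group's range. It had 749.8 CPM in WT saline 2, above the others by 0.647 of the range. Mlxipl had 477.0 CPM in WT DCZ 10, above the others by 0.672 of the range. Elovl6 kept its genotype calls without either of its mice, and Mlxipl was uncalled by genotype and by DCZ without WT DCZ 10.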

How the results depend on the processing

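Of 2070 values of a member under an alternative, 1970 kept their side of the threshold, 78 lost a call, 22 gained one and 0 called values changed sign. Uncalled values near 0 did change sign: for DCZ in Th-Cre mice, 8 of the 10 were positive without the muscle-containing libraries, against 2 of 10 in all 24. Members called after DCZ in Th-Cre or WT mice, or for the difference, stayed at 0 throughout. Members called by genotype after saline were 1 in males only, 0 in females only and 3 to 8 with a library left out, and after DCZ 3 with only the 12 compared libraries, 3 in males only, 0 in females only and 2 to 7 with a library left out. By sex 2 were called with DESeq2 and 1 to 2 with a library left out. Without the muscle-containing libraries, an alternative chosen after seeing the data, 0 members were called in all 6 comparisons. Leaving out mice also lowers the power of each test. Scd1 lost its call after saline with DESeq2 (adjusted p = 0.0715), and the cause was not tested.

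All genes called for DCZ in Th-Cre mice numbered 20 with no filter, 40 with DESeq2, 13 in 12 libraries, 1 in males, 7 without muscle-containing libraries and 3 to 18 with a library left out. In WT mice they numbered 13 with DESeq2, 0 with no filter, no sex term, limma-voom, 12 libraries, males only, females only or no muscle-containing libraries, and 0 to 39 with a library left out. For the difference they numbered 8 with no filter, 2 with no sex term, 16 with DESeq2, 0 in males or females, 4 without muscle-containing libraries and 1 to 7 with a library left out. By genotype after saline they numbered 658 in males, 6 in females, 109 without muscle-containing libraries and 2349 to 4270 with a library left out. By genotype after DCZ they numbered 1081 in 12 libraries, 735 in males, 30 in females, 535 without muscle-containing libraries and 850 to 2443 with a library left out. By sex they numbered 790 to 1162 with a library left out. By the longest transcript, levels were 175 for Acaca, 1168 for Thrsp, 43.5 for Srebf1 and 93.4 CPM per kb for Mlxipl. No paired analysis was possible because the groups share no replicate numbers.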

Other observations

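In Th-Cre DCZ mice all 10 genes had a lower mean log2 CPM in the 3 females than in the 3 males, by -0.06 for Mlxipl to -1.36 for Scd1, with Acly at -1.32, Me1 at -0.75 and Fasn at -0.63. In Th-Cre saline, WT DCZ and WT saline mice 2 of the 10 genes were lower in females in each group: Scd1 in every group, with Srebf1 in Th-Cre saline, Acly in WT DCZ and Thrsp in WT saline mice. Acly in Th-Cre DCZ mice had 576, 587 and 1961 CPM in the females and 1282, 2511 and 3180 CPM in the males. The 10 genes vary together from mouse to mouse, so their shared sign in 3 females and 3 males is not 10 separate results. Among female and male pairs of Th-Cre DCZ mice, the female was lower in 9 of 9 for Scd1. For Acacb, Elovl6, Thrsp, Srebf1 and Mlxipl it was lower in 6 of 9. Whether the difference between the sexes varies between groups was not tested.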
